A study of Homo sapiens with 14 samples.

Results

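The high mobility group (HMG) genes HMGB1, HMGB2, HMGB3, HMGN1, HMGN2, HMGN3, HMGN4 and HMGA1 were followed in 3 prostate cancer cell lines treated with SEL120-34A. This drug inhibits CDK8 and its alternative paralog CDK19, the kinases of the Mediator complex. The HMG genes were found by their symbols and made up 8 of the 62703 genes in the count table. The family was drawn up with results of these data known, so its members count as chosen by their measured log2 responses to SEL120-34A in LNCaP and 22Rv1 and by the difference between them. Those values are described here and support nothing further. All 8 passed the low-count filter.

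HMG proteins are abundant non-histone proteins of chromatin. HMGB proteins carry HMG boxes, which bind the minor groove of DNA and bend it, and HMGB1 also acts as an inflammatory signal once it is released from cells. HMGN proteins bind the nucleosome core and compete with the linker histone H1. HMGA proteins bind AT-rich DNA through AT hooks and are usually abundant in embryonic and cancer cells.

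The libraries came from LNCaP, which responds to the antiandrogen drug enzalutamide, from 22Rv1, which resists that drug, and from PC3, which does not depend on androgen. Each line received SEL120-34A at 1.5 µM or its DMSO vehicle for 3 days. Every arm of LNCaP and 22Rv1 had 3 libraries, and every arm of PC3 had 1. Messenger RNA was counted by BRB-seq, a method that tags the 3′ end of each transcript with a sample barcode. Each model was 1 established cell line with no added genetic change, and the study's methods speak of biological replicates in general. The labels do not say that the libraries of an arm came from separate cultures, so p-values measure the spread between these libraries, which may be technical in part.

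On GRCh38, HMGB1 lies on the minus strand at chr13:30456704-30617597, HMGB2 on the minus strand at chr4:173331376-173334432 and HMGB3 on the plus strand at chrX:150980509-150990771. HMGN1 is on the minus strand at chr21:39342315-39349647, HMGN2 on the plus strand at chr1:26472440-26476642, HMGN3 on the minus strand at chr6:79201245-79234689 and HMGN4 on the plus strand at chr6:26538366-26546933. HMGA1 is on the plus strand at chr6:34236873-34246231. HMGN4 is a retrotransposed relative of HMGN2, and its main transcript had 2 exons against 6 for that of HMGN2.

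Promoter sequences from RefSeq (GRCh38.p14) were matched for 7 of the 8 genes, all except HMGB2. The 250 bases before the start are shown for HMGB1 and HMGN2, called lower in treated LNCaP, and for HMGN4, the relative of HMGN2 that was not called. The RefSeq starts of HMGB3, HMGN1, HMGN3 and HMGA1 lie inside the gene spans given above, that of HMGN3 by only a few bases. Their sequences are not shown. The windows of HMGB3, HMGN1 and HMGA1 thus lie within the gene, and they enter the motif counts below. The windows lie at chr13:30617598-30617847, minus strand, chr1:26472190-26472439, plus strand and chr6:26538116-26538365, plus strand. Capitals mark CCAAT boxes (CCAAT) and GC boxes (GGGCGG), each read on both strands.
HMGB1: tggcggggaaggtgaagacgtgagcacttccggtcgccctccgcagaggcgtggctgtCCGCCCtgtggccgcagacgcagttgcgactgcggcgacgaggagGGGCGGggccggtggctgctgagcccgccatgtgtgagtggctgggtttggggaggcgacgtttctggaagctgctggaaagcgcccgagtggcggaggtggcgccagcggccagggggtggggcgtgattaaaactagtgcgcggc
HMGN2: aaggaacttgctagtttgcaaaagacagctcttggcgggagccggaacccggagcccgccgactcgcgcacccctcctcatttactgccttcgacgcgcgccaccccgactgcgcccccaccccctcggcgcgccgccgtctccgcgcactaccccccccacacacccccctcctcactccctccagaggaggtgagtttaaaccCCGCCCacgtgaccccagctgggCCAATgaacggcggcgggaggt
HMGN4: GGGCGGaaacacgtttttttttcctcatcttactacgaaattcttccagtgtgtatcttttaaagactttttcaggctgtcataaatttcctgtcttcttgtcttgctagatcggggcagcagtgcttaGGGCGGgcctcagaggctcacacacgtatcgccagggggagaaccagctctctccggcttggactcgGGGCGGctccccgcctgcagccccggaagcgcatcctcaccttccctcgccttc
In these windows HMGN4 had 3 GC boxes, HMGB1 had 2 and HMGN2 had 1, and HMGN2 alone of the 3 had a CCAAT box. Over the full 300 bases, which run 50 past the start, a CCAAT box stood in 4 of the 7 promoters (HMGN1, HMGN2, HMGN3 and HMGA1) and in 34.6% of 35116 RefSeq promoters. A GC box stood in 5 of the 7 and in 45% of all. An E2F-type site (TTTCCCGC, TTTGGCGC or TTTCGCGC) was in 0 of the 7 and in 2.74% of all, and a CHR-type element (TTTGAA) in 0 of the 7 and in 15.2% of all, both strands read. The matches describe letters only.

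Total counts ran from 246063 to 909176 per library. The treated libraries were shallower, at 291056 to 519928 against 412881 to 759548 in LNCaP and at 246063 to 368778 against 476455 to 777207 in 22Rv1. Mitochondrial genes took 13.9% to 17.3% of counts in LNCaP DMSO and 16.5% to 23.3% in LNCaP SEL120-34A, and 7.60% to 9.82% and 9.52% to 13.1% in 22Rv1. KLK3, the prostate-specific antigen gene, had 523 to 885 counts in LNCaP DMSO, 7 to 17 in 22Rv1 DMSO and 7 in PC3 DMSO. Of 4 blood cell markers and 3 endothelial markers, none passed 4 counts in any library. The fibroblast marker COL1A1 had 0 to 13 counts in LNCaP and 22Rv1 and 85 and 49 in PC3.

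In LNCaP, 4 of the 8 HMG genes were lower after SEL120-34A and past the threshold, an adjusted p under 0.05 in edgeR's quasi-likelihood test over the 7086 genes kept. They were the 3 HMGB genes and HMGN2, and no member was higher past it. Over all tested genes 2.77% were called in this comparison, and 0.776% were called lower. Levels are CPM, a count relative to the library total scaled with TMM factors, and changes are log2 ratios of SEL120-34A to DMSO with their standard error. The median change of the 8 was -0.40, beside 0.00 for all genes tested. With library totals in place of TMM factors the 4 stayed past the threshold, while the calls over all genes shifted from 55 lower and 141 higher to 90 lower and 99 higher.

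HMGB2, a DNA-bending protein abundant in dividing cells, had the smallest p of the 8. Its levels were 370, 377 and 391 CPM in LNCaP DMSO and 113, 155 and 224 CPM in LNCaP SEL120-34A. Every treated library was below every control, and the treated libraries spread more than the controls. The means were 380 ± 10.8 and 164 ± 56.0 CPM (SD, n = 3), a log2 change of -1.13 ± 0.17 (edgeR adjusted p = 2.36e-05).

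HMGB1, the HMG-box protein that doubles as an extracellular signal, stood at 409, 424 and 452 CPM in LNCaP DMSO and at 265, 309 and 304 CPM after treatment. The arms did not overlap. The change was -0.51 ± 0.14 (edgeR adjusted p = 0.0344), and it was close to the threshold, since leaving out any 1 of the 6 LNCaP libraries gave an adjusted p between 0.0561 and 0.184.

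HMGB3, a relative studied in blood stem cells, was measured at low depth, with 37 to 68 counts in LNCaP DMSO and 10 to 25 in LNCaP SEL120-34A. Its levels were 95.8, 96.9 and 83.9 CPM in the controls and 46.8, 27.1 and 52.8 CPM in the treated libraries. No treated library reached the lowest control. The change was -1.07 ± 0.26 (edgeR adjusted p = 0.0130). Without LNCaP SEL120-34A replicate 2, its lowest library, the change was -0.83 and the adjusted p 0.176.

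HMGN2 was the HMGN gene that passed the threshold in LNCaP. It had 141, 131 and 130 CPM in the controls and 50.7, 92.2 and 61.2 CPM after SEL120-34A, again without overlap. The change was -0.93 ± 0.22 (edgeR adjusted p = 0.00975). The call was lost without LNCaP SEL120-34A replicate 1 (adjusted p = 0.0750) and without LNCaP SEL120-34A replicate 3 (adjusted p = 0.0619).

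The other HMGN genes were not called in LNCaP. HMGN1, which binds nucleosomes of active chromatin, had 514, 550 and 538 CPM in DMSO and 394, 480 and 534 CPM in SEL120-34A, and the arms overlapped. Its change was -0.14, with a 95% interval of -0.40 to 0.13. HMGN3 ran from 200 to 267 CPM in the controls and from 158 to 226 CPM in the treated libraries (-0.23, interval -0.59 to 0.13). HMGN4 ran from 36.7 to 71.3 and from 46.8 to 78.6 CPM (0.19, interval -0.33 to 0.71), and it was the only member with a positive change in LNCaP.

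HMGA1, the AT-hook protein, had 130, 178 and 155 CPM in LNCaP DMSO and 129, 108 and 127 CPM in LNCaP SEL120-34A. The arms lay next to each other without overlap. The change of -0.30 ± 0.19 was not called (edgeR adjusted p = 0.520). Counting HMGA1, 5 of the 8 genes were lower in every treated LNCaP library than in every control, beside 10.7% of all genes tested.

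**Figure D1:**
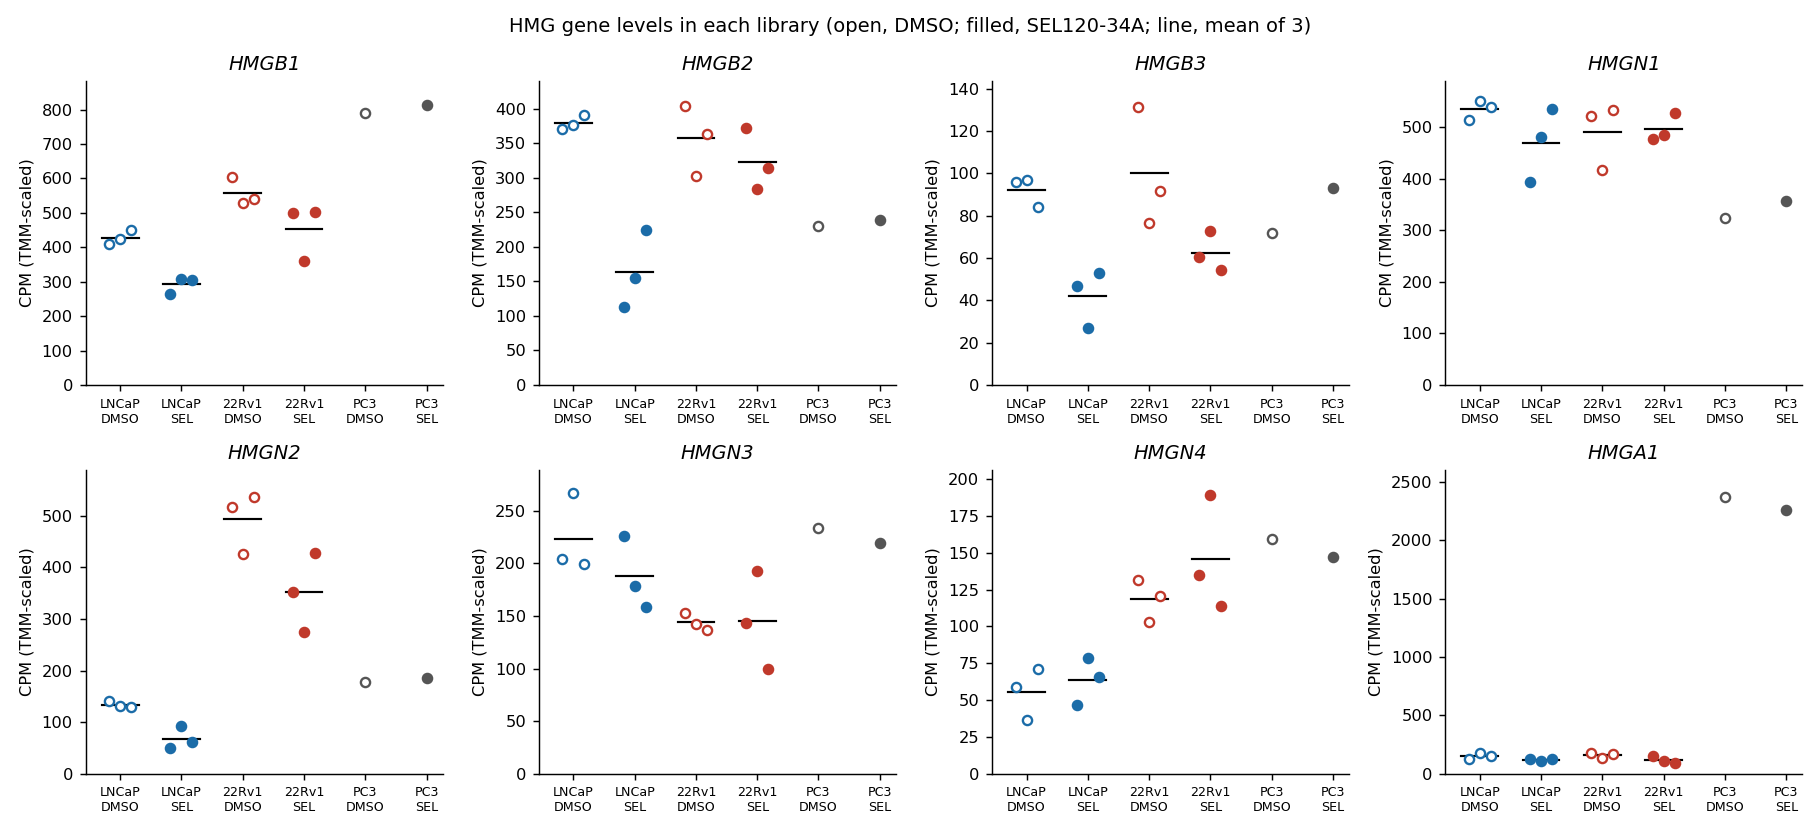
Level of each of the 8 HMG genes in each of the 14 libraries, in CPM scaled with TMM factors, by cell line and treatment. Open points are DMSO, filled points are SEL120-34A and lines are means of 3 libraries. The treated LNCaP points of HMGB1, HMGB2, HMGB3 and HMGN2 lie below all LNCaP controls, and HMGA1 stands at 2367 and 2257 CPM in PC3 against 94.1 to 179 CPM elsewhere.

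In 22Rv1, none of the 8 passed the threshold, where 5.70% of all genes tested did. At an unadjusted edgeR p under 0.05 there were 3 (HMGB3, HMGN2 and HMGA1), beside 1351 of the 7086 genes tested. The DESeq2 Wald test and limma-trend also called 0 of the 8. The median change was -0.19, beside 0.00 for all genes.

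HMGN2 came nearest, with 516, 425 and 537 CPM in 22Rv1 DMSO and 353, 275 and 428 CPM in 22Rv1 SEL120-34A. The highest treated library lay just above the lowest control. The change was -0.46 ± 0.15 (edgeR adjusted p = 0.0613). HMGN2 passed the threshold under 10 of 24 other settings, among them library totals alone (adjusted p = 0.0152), the 22Rv1 libraries fitted alone (0.0433) and mitochondrial genes removed (0.0469).

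HMGB3 had 132, 76.7 and 91.8 CPM in 22Rv1 DMSO and 60.6, 73.0 and 54.2 CPM in 22Rv1 SEL120-34A. HMGB1 had 605, 530 and 539 CPM and then 499, 361 and 502 CPM. These 2 genes did not overlap between arms and were lower in treatment, which was true of 10.5% of all genes tested. Their changes were -0.67 ± 0.24 (edgeR adjusted p = 0.0994) and -0.27 ± 0.13 (edgeR adjusted p = 0.267). HMGB3 passed the threshold with library totals alone (0.0390) and with at least 10 counts required in every library (0.0394).

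HMGB2 had 404, 303 and 364 CPM in 22Rv1 DMSO and 372, 283 and 314 CPM in 22Rv1 SEL120-34A, and the arms overlapped. Its change was -0.12, with a 95% interval of -0.44 to 0.20. HMGA1 had 179, 131 and 173 CPM and then 152, 107 and 94.1 CPM, a change of -0.43 ± 0.19 (edgeR adjusted p = 0.206). HMGN1 (0.03, interval -0.24 to 0.30), HMGN3 (-0.01, interval -0.41 to 0.39) and HMGN4 (0.28, interval -0.14 to 0.69) overlapped between arms as well.

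The response of HMGB2 was more negative in LNCaP than in 22Rv1 by 1.01 ± 0.23 on the log2 scale (edgeR adjusted p = 0.0251), a contrast that called 0.734% of all genes tested. It was the only member called there. The call was lost with limma-trend (adjusted p = 0.176) and when LNCaP DMSO replicate 3, LNCaP SEL120-34A replicate 1, LNCaP SEL120-34A replicate 2, 22Rv1 DMSO replicate 2 or 22Rv1 SEL120-34A replicate 1 was left out (0.0658 to 0.125). The differences of the other 7 ran from -0.47 for HMGN2 (interval -1.004 to 0.066) to 0.13 for HMGA1 (interval -0.42 to 0.68). The HMGB1 difference was -0.24 (interval -0.63 to 0.15) and that of HMGB3 -0.40 (interval -1.14 to 0.34).

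**Figure D2:**
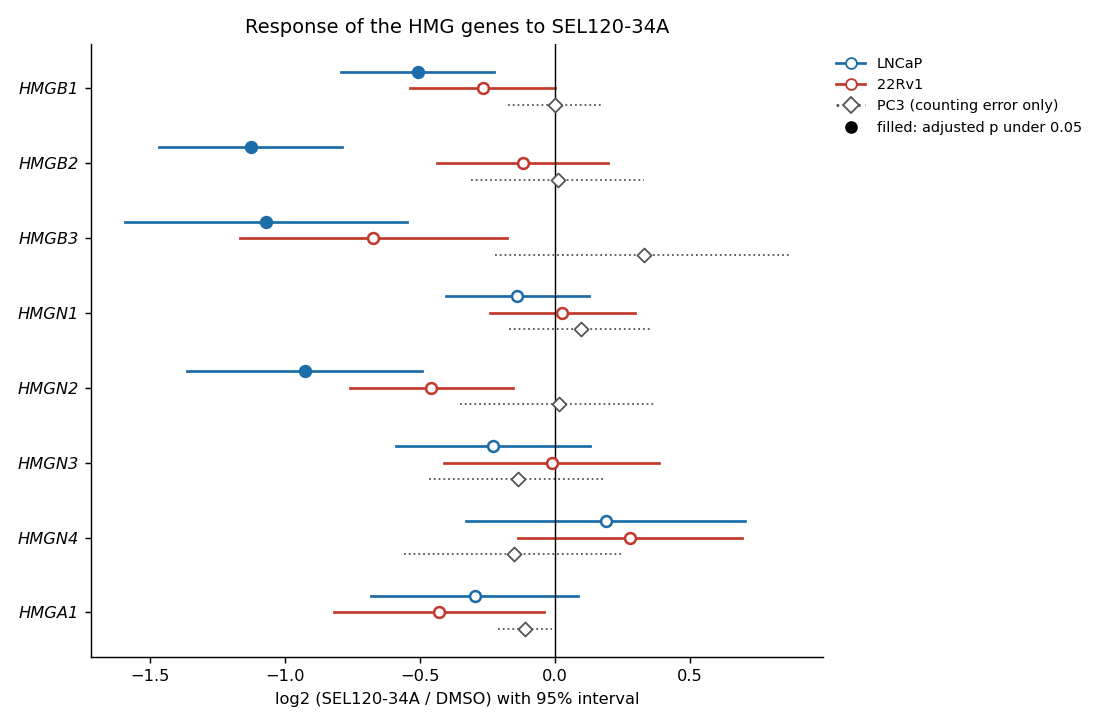
Log2 ratio of SEL120-34A to DMSO for each HMG gene with its 95% interval, in LNCaP and 22Rv1 (edgeR, filled where the adjusted p was under 0.05) and in PC3 (1 library per arm, dotted interval from counting error only). Filled points are HMGB1, HMGB2, HMGB3 and HMGN2 in LNCaP, and none is filled in 22Rv1.

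The control libraries of LNCaP and 22Rv1 were compared as a contrast separate from the responses, although the same DMSO libraries enter both. Of the 8 genes, 4 were called: HMGN2, HMGN4 and HMGB1 were lower in LNCaP and HMGN3 was higher. The lines differed widely, and 49.0% of all genes tested were called, so the count among the 8 was near the background. The same 4 were those whose libraries did not overlap, as was true of 56.4% of all genes.

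HMGN2 differed most. It stood at 130 to 141 CPM in LNCaP DMSO and at 425 to 537 CPM in 22Rv1 DMSO, a log2 difference of -1.87 ± 0.16 (edgeR adjusted p = 3.48e-13). HMGN4 stood at 36.7 to 71.3 CPM in LNCaP and 103 to 132 CPM in 22Rv1 (-1.01 ± 0.21, edgeR adjusted p = 1.17e-04). HMGN3 went the other way, with 200 to 267 CPM in LNCaP and 137 to 153 CPM in 22Rv1 (0.62 ± 0.17, edgeR adjusted p = 0.00253).

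HMGB1 was lower in LNCaP by a smaller margin, 409 to 452 against 530 to 605 CPM (-0.38 ± 0.13, edgeR adjusted p = 0.0134). Its adjusted p was 0.0502 to 0.0527 without LNCaP DMSO replicate 1, LNCaP DMSO replicate 2 or 22Rv1 DMSO replicate 1. HMGB2 (0.09, interval -0.20 to 0.39), HMGB3 (-0.11, interval -0.52 to 0.30), HMGN1 (0.12, interval -0.14 to 0.37) and HMGA1 (-0.09, interval -0.42 to 0.25) were not called. HMGB2, whose response differed between the lines, thus had overlapping control levels of 370 to 391 CPM in LNCaP and 303 to 404 CPM in 22Rv1.

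**Figure D3:**
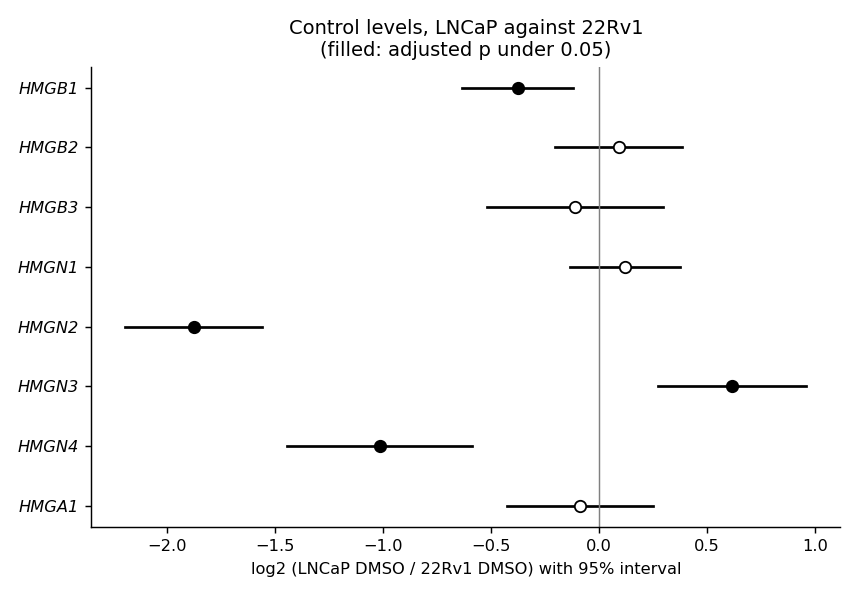
Log2 ratio of the LNCaP to the 22Rv1 control level of each HMG gene with its 95% interval (edgeR, 3 DMSO libraries per line), filled where the adjusted p was under 0.05. HMGN2, HMGN4 and HMGB1 lie left of 0, HMGN3 lies right of it, and the other 4 intervals span 0.

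PC3 had 1 library per arm, so its values have no replicate check and no test, and its intervals cover counting error only. HMGA1 had 2174 counts in PC3 DMSO and 1287 in PC3 SEL120-34A, or 2367 and 2257 CPM. These levels were 15.3 times the LNCaP and 14.7 times the 22Rv1 control mean in DMSO, while the other 12 libraries ran from 94.1 to 179 CPM. HMGA2, the other AT-hook gene, had 69 and 51 counts in PC3 and 0 to 2 in each of the other libraries.

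The PC3 response of HMGA1, as counts over library totals, was -0.11 (95% interval -0.21 to -0.01), and the median of 7089 genes with at least 10 counts in both libraries was 0.01. The intervals of the other 7 members spanned 0. HMGB2 had 211 and 136 counts (0.01, interval -0.31 to 0.33), HMGN2 164 and 106 (0.02, interval -0.35 to 0.38), HMGB1 726 and 464 (0.00, interval -0.17 to 0.17) and HMGB3 66 and 53 (0.33, interval -0.22 to 0.87). HMGN1 had 297 and 203 counts, HMGN3 215 and 125, and HMGN4 146 and 84.

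Ordered by mean level over the 6 groups, treated LNCaP was the lowest group for HMGB1, HMGB2, HMGB3 and HMGN2. Both PC3 libraries stood above all others for HMGB1 (790 and 814 CPM) and HMGA1. For HMGB1 the order ran from PC3 through 22Rv1 DMSO, 22Rv1 SEL120-34A and LNCaP DMSO to LNCaP SEL120-34A, and among the LNCaP and 22Rv1 neighbours only 22Rv1 SEL120-34A and LNCaP DMSO overlapped. For HMGB2, LNCaP DMSO, 22Rv1 DMSO and 22Rv1 SEL120-34A overlapped in that order, and the PC3 libraries lay below them at 230 and 238 CPM. For HMGN2 both 22Rv1 groups overlapped above PC3 at 179 and 186 CPM, and both LNCaP groups lay below PC3. For HMGN1 the 4 LNCaP and 22Rv1 groups overlapped with their neighbours, above PC3 at 323 and 356 CPM. For HMGN3 and HMGN4 the PC3 DMSO library, at 234 and 159 CPM, was above every group mean but within the range of single libraries (up to 267 CPM in LNCaP DMSO and 189 CPM in 22Rv1 SEL120-34A).

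Summed within a library, the 3 HMGB genes came to 900 ± 26.2 CPM in LNCaP DMSO and 499 ± 78.2 CPM in LNCaP SEL120-34A, and to 1015 ± 117 and 839 ± 111 CPM in 22Rv1 (SD, n = 3). The 4 HMGN genes came to 947 ± 33.7 and 789 ± 62.0 CPM in LNCaP and to 1246 ± 137 and 1140 ± 30.8 CPM in 22Rv1. In PC3 the HMGB sum was 1092 and 1145 CPM and the HMGN sum 895 and 908 CPM.

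Several members have processed pseudogenes that resemble them, and the counting could divide reads between the copies. The table held 48 rows of HMGB1 pseudogenes, with 746 counts over all libraries or 19.8% of the HMGB1 count, most of them in HMGB1P6 (401) and HMGB1P5 (275). The HMGN2 pseudogenes held 183 counts (9.78% of the HMGN2 count) and those of HMGB3 held 33 (5.75%). HMGB2, HMGN3 and HMGN4 had no pseudogene counts. With each gene's pseudogene rows added to it, the same number of members was called in each comparison: 4 in LNCaP, 0 in 22Rv1, 1 for the difference and 4 for the controls. BRB-seq tags the 3′ end, but where reads fell within each gene was not checked. In the last 500 bases of the annotated main transcript, 0 of 451 words of 50 bases were shared with another HMG-named transcript for any of the 8 genes. Over the whole main transcript, the share of such words was 15.6% for HMGN2, 15.1% for HMGB1 and 14.2% for HMGN1. It was 5.29% for HMGA1, 3.88% for HMGB3, 0.718% for HMGB2 and 0 for HMGN3 and HMGN4.

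HMGB2 is a common marker of dividing cells, so the S and G2/M phase lists of the Seurat package were set beside it, with HMGB2 left out of the second. Here and below, fell and rose mean past the threshold. Of all genes tested, 0.776% were called lower in LNCaP and 1.55% in 22Rv1. In LNCaP, 6 of the 44 G2/M genes tested fell and 1 rose, while 39 had a negative change and the median was -0.45. The 4 with the smallest p were CDC20 (-0.96), an activator of the anaphase-promoting complex, SMC4 (-1.06), a condensin subunit, LBR (-1.30), a receptor of the nuclear lamina, and BIRC5 (-0.65), the inhibitor of apoptosis survivin. In 22Rv1, 4 of the 44 fell and none rose, while 31 had a negative change and the median was -0.23. The 4 were TMPO (-0.86), CDC20 (-0.74), JPT1 (-0.46) and the proliferation marker MKI67 (-1.39).

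The summed level of the 53 G2/M genes was 4812 to 5239 CPM in LNCaP DMSO and 3579 to 4133 CPM in LNCaP SEL120-34A, and 5529 to 5801 and 4378 to 4912 CPM in 22Rv1. In PC3 the sums were 4977 and 5302 CPM. The summed level of the 43 S phase genes was 3144 to 3456 CPM in LNCaP DMSO and 2070 to 2750 CPM in LNCaP SEL120-34A, and 4337 to 4729 and 4137 to 4440 CPM in 22Rv1. The arms of the G2/M sum did not overlap in either line, and those of the S phase sum overlapped in 22Rv1. Of the 34 S phase genes tested, 32 had a negative change in LNCaP, with a median of -0.41. The 2 that fell were RRM2 (-1.19), a subunit of ribonucleotide reductase, and CENPU (-0.89), a kinetochore protein. In 22Rv1, 1 fell, MCM4 (-0.95), a subunit of the replicative helicase, while 17 of the 34 had a negative change and the median was -0.01. The part of cell cycle stage, of mitochondrial share and of depth in the HMG values was not tested. With mitochondrial genes removed, 4 HMG genes were called in LNCaP, and with all libraries thinned to the smallest total, 3 were.

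**Figure D4:**
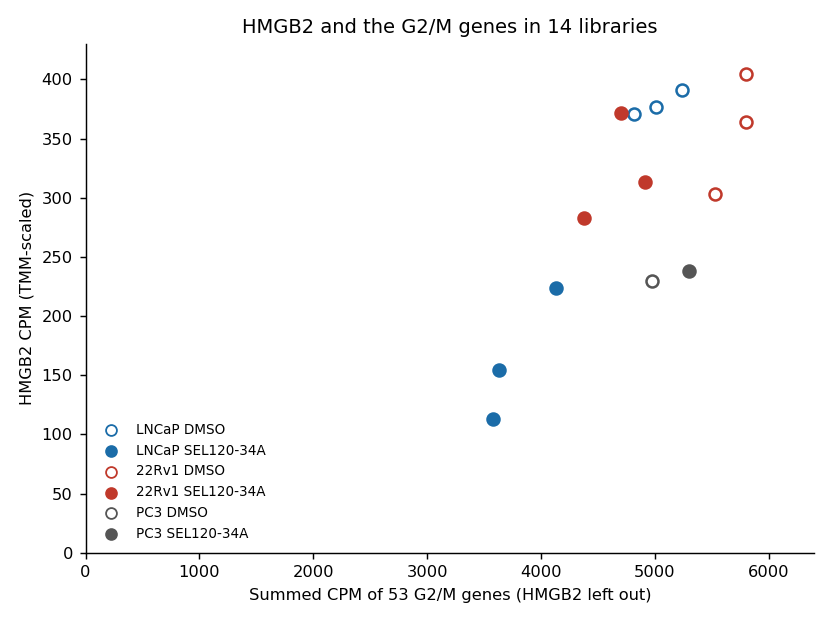
HMGB2 level against the summed level of 53 G2/M genes without HMGB2, both in CPM scaled with TMM factors, for each of the 14 libraries. The 3 treated LNCaP libraries are lowest on both axes (3579 to 4133 CPM for the sum and 113 to 224 CPM for HMGB2), and the PC3 libraries have less HMGB2 than other libraries with like sums.

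Of HMGN5, HMG20B, HMGXB3 and HMGXB4, the 4 tested of 7 listed, none was called in LNCaP (median -0.19) or in 22Rv1 (median 0.04), and the summed level of the 7 overlapped between arms in both lines. HMGN5, a further HMGN protein, had 16.8 to 20.9 CPM in LNCaP DMSO and 2.71 to 19.0 CPM in LNCaP SEL120-34A (-0.84 ± 0.50, edgeR adjusted p = 0.488). Of 15 other HMG-box genes tested, none was called in either line, with medians of -0.12 and -0.20.

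Partners and competitors of the HMG proteins were described by the same fit. Of 4 linker histones tested, which HMGN proteins displace, none was called in LNCaP (median -0.25). Of 4 genes of the SET complex, which holds HMGB2, none was called in LNCaP (median -0.19) and SET itself fell in 22Rv1 (-0.54, edgeR adjusted p = 0.0180). SET stood at 606 to 703 CPM in LNCaP DMSO and 363 to 583 CPM after treatment, without overlap.

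Of 22 histone chaperones, NAP1L1 (-0.57), a chaperone of H2A and H2B, and PTMA (-0.48), which binds linker histone, fell in LNCaP, and the nucleolar protein NCL (-0.54) fell in 22Rv1. The medians were -0.30 and -0.17. Of 17 other non-histone chromatin proteins tested, none was called in LNCaP (median -0.16), and HNRNPU (-0.94), NUCKS1 (-0.70) and TOP2B (-0.92) fell in 22Rv1 (median -0.39). Of 8 histone variants, H2AX, the variant phosphorylated at DNA breaks, fell in LNCaP (-0.75) and none was called in 22Rv1.

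Of 13 cell cycle transcription factors tested, MYBL2, a regulator of G2/M genes, fell in LNCaP (-0.97) and none was called in 22Rv1, with medians of -0.26 and -0.12. Receptors and ligands of extracellular HMGB1 were mostly too low to test, and CD24 alone of 10 was tested. CD24, a surface glycoprotein that binds HMGB1, rose in LNCaP by 2.51 ± 0.37 (edgeR adjusted p = 1.53e-05) and had -0.44 in 22Rv1, not called. Its LNCaP level was low, at 4.23 to 13.98 CPM in DMSO and 46.46 to 77.98 CPM in SEL120-34A. The size of the LNCaP rise thus rests on few control counts. In PC3, with 1 library per arm and no test, CD24 stood at 236 CPM in DMSO and 461 CPM in SEL120-34A.

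The genes most like each member were ranked by Pearson's r of log2 CPM over the 12 LNCaP and 22Rv1 libraries, after each line's mean was removed, among 3382 genes with a mean of at least 50 CPM. The libraries share treatment and depth, so r is a description. Nearest to HMGB2 were ZWINT (0.96), a kinetochore protein, LDHA (0.96), lactate dehydrogenase, and CBX3 (0.95), a heterochromatin protein. Nearest to HMGB1 were the RNA-binding proteins RBM3 (0.97) and HNRNPA1 (0.96) and the mitotic kinase PLK1 (0.95). HMGN2 had the lamin LMNB2 (0.92), HMGB1 (0.91) and ZNF207 (0.89), and HMGB3 had TPT1 (0.95), RPUSD1 (0.94) and the demethylase KDM1A (0.94). Between members, r was 0.91 for HMGB1 with HMGN2, 0.83 for HMGB1 with HMGB2 and 0.76 for HMGB2 with HMGB3, and -0.38 for HMGB1 with HMGN4. With each group's mean removed, which takes the treatment out, the first 3 values were 0.69, 0.55 and 0.24. The other pairs among the genes called in LNCaP turned negative or weakened. HMGB1 with HMGB3 went from 0.66 to -0.27, HMGB3 with HMGN2 from 0.59 to -0.55 and HMGB2 with HMGN2 from 0.79 to 0.32.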

How the data were processed

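Messenger RNA of 14 libraries was measured by BRB-seq. The authors used STARsolo on GRCh38.p13 to align and count reads and deposited raw counts per gene, per the labels. The STARsolo version and any collapsing of molecular identifiers were not given in the sources used here. The PC3 intervals hold counting error alone and treat every count as a separate molecule, so they may be too narrow. The intervals from the edgeR fit also hold the spread between libraries. Deposited log2 CPM values (TMM, prior count 2) of 9638 genes, made by the authors, served 1 alternative.

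Counts of the 12 LNCaP and 22Rv1 libraries were fitted in 1 model with a mean per group in edgeR 4.0.16 (R 4.3.3), with TMM factors, low-count filtering to 7086 genes and the quasi-likelihood F-test. P-values were adjusted over all genes kept by Benjamini-Hochberg, and the threshold was 0.05. Coordinates came from GENCODE on GRCh38. The PC3 interval is an exact conditional binomial 95% interval. The test was checked on simulated counts with planted changes larger than any member response and the same spread for every gene. That check does not cover smaller changes or genes with a wider spread. Members and lists were chosen with earlier results of these data known. From each list, genes past the threshold were named, at most 4 per response by smallest p, with the 3 nearest genes by correlation for the members the results turn on. A result of the linker histone list in 22Rv1 is not reported here. Alternatives were other scalings and filters, a replicate block, PC3 added, each line alone, removal of mitochondrial genes, thinning, pseudogene rows added, each library left out, DESeq2 1.42.0 and limma-trend 3.58.1.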

Additional observations from a re-analysis of the deposited data

Results flagged for a closer look

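The response of HMGB2 to SEL120-34A differed between the lines by the test of the difference itself, at -1.01 ± 0.23 (LNCaP minus 22Rv1, log2 scale, edgeR quasi-likelihood adjusted p = 0.0251 over all genes tested). That contrast called 0.734% of all genes tested, and the HMGB2 call was lost under 6 of 23 alternatives. Treated HMGB2 libraries were below all controls in 3 of 3 in LNCaP, as was true of 10.7% of all genes tested. Its arms overlapped in 22Rv1. The gene family was chosen with these responses known, so the value is a description.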

How the results depend on the processing

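No called member changed direction under any alternative run. The HMGB2 call in LNCaP held under all 24 (adjusted p 3.95e-09 to 0.0294), while the HMGB1 call was lost under 9, that of HMGN2 under 3 and that of HMGB3 under 2. The number of members called in LNCaP, 4, was 1 with limma-trend, and 2 to 4 with 1 library left out. In 22Rv1 it was 0, but 2 with library totals alone and with at least 10 counts in every library, and 1 with each line fitted alone and with mitochondrial genes removed, and it was 0 to 1 with 1 library left out. For the difference it was 1, but 0 with limma-trend, and 0 to 1 with 1 library left out. For the controls it was 4, and 3 to 4 with 1 library left out. The cause of these shifts was not tested.

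Library totals alone moved the median of all genes by -0.08 in LNCaP, -0.14 in 22Rv1 and -0.21 for the controls, and the calls in 22Rv1 to 231 lower and 144 higher, against 110 and 294. Mean levels on that scale were 402 (LNCaP DMSO), 264 (LNCaP SEL120-34A) and 601 CPM (22Rv1 DMSO) for HMGB1, and in LNCaP DMSO 357 for HMGB2, 501 for HMGN1 and 126 for HMGN2, with 155 for HMGN3 in 22Rv1 DMSO and 109 for HMGA1 in LNCaP SEL120-34A.

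Changes that were not called and turned sign were those of HMGN1 in 22Rv1 (-0.12 with library totals alone, -0.0353 without a filter, -0.0522 with at least 10 counts, -0.0054 fitted alone, -0.0900 to 0.0759 with 1 library left out), HMGN3 in 22Rv1 (0.13 thinned, 0.0051 with DESeq2, -0.22 to 0.22) and the difference for HMGN4 (0.0058 with at least 10 counts, 0.33 thinned, -0.26 to 0.14) and HMGA1 (-0.0474 to 0.37). Between controls they were HMGB2 (-0.12 with library totals alone, -0.0143 to 0.16), HMGB3 (0.30 thinned, -0.25 to 0.0901), HMGN1 (-0.0949 with library totals alone) and HMGA1 (-0.21 to 0.0242).

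Replicate numbers were shared by all arms, and these values do not settle whether they mark pairs. Correlations were taken on log2 CPM with each group's mean removed, among genes with a mean of at least 50 CPM. So taken, same-numbered libraries of the 2 arms correlated at -0.01 to 0.22 in LNCaP, where 4 of 6 correlated best with their own number. In 22Rv1 they correlated at -0.03 to 0.05, and 2 of 6 did so. With the replicate block, 4 members were called in LNCaP, 1 in 22Rv1, 1 for the difference and 4 between controls.

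Over all genes, the 196 calls in LNCaP came to 122 with at least 10 counts, 119 thinned, 101 with DESeq2, 41 with limma-trend and 87 to 239 with 1 library left out. The 404 in 22Rv1 came to 260 without a filter, 268 thinned, 255 with DESeq2, 201 with limma-trend and 158 to 446. The 52 for the difference came to 29, 22 thinned, 5 with limma-trend and 24 to 57. The 3473 between controls came to 1503 with at least 10 counts and 2049 thinned. HMGB3 and HMGN4, with as few as 10 and 12 counts in a library, were the most limited by depth.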
